A study of Mus musculus with 12 samples.

Results

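The 10 genes described here, *Tcf7l2*, *Lef1*, *Prkcd*, *Ramp3*, *Slc17a6*, *Ntng1*, *Rgs16*, *Adarb1*, *Rora* and *Synpo2*, are marker genes of the thalamus, the relay nuclei that lie directly beneath the hippocampus. They were chosen by name to show whether dissected hippocampi carried neighboring thalamic tissue, and each matched 1 of the 55421 genes in the count files. RNA was sequenced from the hippocampus of 12 mice in 4 groups of 3: wild-type mice given vehicle (WT-Veh), wild-type mice given Nutlin-3 (WT-Nut3), *Fmr1* knockout mice given vehicle (KO-Veh) and *Fmr1* knockout mice given Nutlin-3 (KO-Nut3). Nutlin-3 is a small molecule that blocks MDM2, the ubiquitin ligase that restrains p53. Injections were intraperitoneal at 2 months of age, per the methods 5 injections of 10 mg/kg, and tissue was taken at 6 months of age. The knockout is constitutive, each library came from 1 animal, and the labels of the sequenced mice give no sex. Animals are named by their label numbers (RH1 to RH16). The libraries held 17150820 to 20040482 reads on genes. *Fmr1* itself measured 73.97 to 79.5 CPM (read counts scaled per 1e6 reads) in the 6 wild-type libraries and 28.5 to 37.3 CPM in the 6 knockout libraries, so every library matched its labelled genotype.

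Thalamic relay neurons are glutamatergic and package their transmitter with VGLUT2, encoded by *Slc17a6*, whereas principal neurons of the adult hippocampus use mainly VGLUT1. *Tcf7l2* and *Lef1* encode HMG-box transcription factors of Wnt signaling that remain expressed in the postmitotic thalamus. None of the 10 genes is restricted to the thalamus: *Slc17a6* and *Tcf7l2* also mark neurons of the midbrain and habenula, and several of the others are transcribed in hippocampal neurons or interneurons. In bulk tissue, fewer cells of a type and less RNA per cell cannot be told apart.

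One library stood apart and bears on many results below. In KO-Nut3 RH6, 68 of 15346 genes with a mean of at least 1 CPM lay at least 2-fold above each of the other 11 libraries, which was 0.443% of those genes. The same count was between 0 and 9 in each other library. KO-Nut3 RH6 was the highest library for 6 of the 10 marker genes, against 17% of all those genes, and 3 of the 10 lay at least 2-fold above every other library. Results that rest on this library are given with and without it, a choice made after its values were seen.

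*Slc17a6* (chromosome 7, 51622006 to 51671119, plus strand, GRCm38) measured 9.85, 11.6 and 16.8 CPM in WT-Veh (animals RH2, RH5 and RH15), 22.2, 9.64 and 11.6 CPM in WT-Nut3 (RH1, RH9 and RH14), 13.3, 10.4 and 9.63 CPM in KO-Veh (RH7, RH10 and RH16), and 113, 8.42 and 8.95 CPM in KO-Nut3 (RH6, RH8 and RH13). A single KO-Nut3 library was thus 5.07 times the highest of the other 11, while the remaining KO-Nut3 libraries were the lowest of all 12 and lay under all 3 KO-Veh libraries. The value in KO-Nut3 RH6 rested on 2030 reads.

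*Tcf7l2* (chromosome 19, 55741820 to 55933654, plus strand) measured 4.84, 5.25 and 5.30 CPM in WT-Veh, 5.38, 6.91 and 5.05 CPM in WT-Nut3, 4.75, 5.13 and 6.04 CPM in KO-Veh, and 32.7, 7.33 and 4.89 CPM in KO-Nut3, each in the animal order given above. KO-Nut3 RH6 was 4.46 times the next library, KO-Nut3 RH8. The other 11 libraries spanned only 1.54-fold from lowest to highest, and the 4 groups overlapped once KO-Nut3 RH6 was set aside.

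*Lef1* (chromosome 3, 131110471 to 131224356, plus strand) measured 2.39, 4.31 and 3.55 CPM in WT-Veh, 4.06, 3.87 and 2.75 CPM in WT-Nut3, 3.61, 3.10 and 2.85 CPM in KO-Veh, and 11.6, 2.92 and 3.68 CPM in KO-Nut3. The same animal was high, 2.69 times the next library, and the groups again overlapped without it. *Lef1* shares 1208 bases of exon with an antisense gene, *Gm43352*, and the counts carry no strand. STAR sets reads on exon shared by a pair of genes aside as ambiguous, so they are missing from the values of *Lef1*.

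Because *Slc17a6* and *Tcf7l2* lay furthest above the other libraries in KO-Nut3 RH6 among the 10 genes, the 250 bases before a RefSeq transcription start of each are shown (GRCm38.p6, plus strand, 5′ to 3′). The window of *Slc17a6* is chr7:51621580-51621829. The window of *Tcf7l2* is chr19:55895071-55895320, an alternative start inside the gene. Capitals mark a match to CTTTGTT, which with CTTTGAT was searched on both strands as the letters bound by TCF and LEF proteins. The same letters overlap the sequence bound by SOX factors.
Slc17a6: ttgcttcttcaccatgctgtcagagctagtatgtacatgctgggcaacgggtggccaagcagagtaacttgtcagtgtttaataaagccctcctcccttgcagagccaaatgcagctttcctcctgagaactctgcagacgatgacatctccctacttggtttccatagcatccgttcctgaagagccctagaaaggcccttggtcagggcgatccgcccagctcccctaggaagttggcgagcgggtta
Tcf7l2: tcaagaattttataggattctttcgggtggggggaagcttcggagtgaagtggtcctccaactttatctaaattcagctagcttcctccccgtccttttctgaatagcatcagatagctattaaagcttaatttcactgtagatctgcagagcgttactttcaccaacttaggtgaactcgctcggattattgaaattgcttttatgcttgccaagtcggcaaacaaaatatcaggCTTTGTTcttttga
The *Tcf7l2* match began 14 bases before the start. Each gene had 2 such windows in RefSeq, and neither window of *Slc17a6* held a match. All 10 genes had at least 1 window, and 2 of their 16 windows held a match (12.5%), the other being one of *Prkcd*, with AACAAAG on the given strand 242 bases before its start, against 8.06% of 32851 windows of all genes. GC content was 53.2% in the *Slc17a6* window and 40.8% in the *Tcf7l2* window, beside a median of 52.4% over all windows.

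*Rora*, which encodes an orphan nuclear receptor, measured 36.8, 44.4 and 48.3 CPM in WT-Veh, 47.8, 41.3 and 40.7 CPM in WT-Nut3, 43.8, 41.4 and 40.4 CPM in KO-Veh, and 77.3, 45.8 and 39.7 CPM in KO-Nut3. KO-Nut3 RH6 was 1.6 times the next library, and the other 11 formed one overlapping range. *Rgs16*, a regulator of G protein signaling, was also highest in KO-Nut3 RH6, at 8.04 CPM, but only 1.17 times the next library, WT-Veh RH5 at 6.88 CPM. *Adarb1*, the RNA-editing enzyme ADAR2, was highest there too, at 253 CPM against 207 to 237 CPM elsewhere. *Rora* shares 82 bases and *Rgs16* 236 bases of exon with antisense genes.

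The other 4 genes were not highest in KO-Nut3 RH6. *Prkcd*, protein kinase C delta, measured 34.0, 16.5 and 22.9 CPM in WT-Veh, 23.2, 25.7 and 30.1 CPM in WT-Nut3, 22.5, 22.8 and 43.2 CPM in KO-Veh, and 40.6, 38.6 and 33.6 CPM in KO-Nut3. Its highest library was KO-Veh RH16, and all 3 KO-Nut3 libraries lay above all 3 WT-Nut3 libraries, a separation seen in 5.3% of all genes tested. *Ntng1*, the axonal adhesion protein netrin-G1, ranged from 40.9 to 53.0 CPM over the 12 libraries, with 51.7 CPM in KO-Nut3 RH6. *Ramp3*, an accessory protein of calcitonin-family receptors, ranged from 1.57 to 3.50 CPM, with 2.61 CPM in KO-Nut3 RH6, and rested on as few as 28 reads a library. *Synpo2*, an actin-binding protein, ranged from 6.48 to 9.93 CPM, with 8.21 CPM in KO-Nut3 RH6. *Ramp3* shares 101 bases of exon with the pseudogene *Gm11978*.

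The 10 genes split in the library where some were high. In KO-Nut3 RH6 the ratio to the median of the other 11 libraries was 10.9 for *Slc17a6*, 6.23 for *Tcf7l2* and 3.26 for *Lef1*, but 1.58 for *Prkcd*, 1.07 for *Ntng1*, 1.07 for *Synpo2* and 0.972 for *Ramp3*. Whether the high genes came from thalamic tissue was not tested. The median ratio over the 10 genes was 1.70. Averaged over the 10 genes, the log2 level in KO-Nut3 RH6 was 1.05 above the median of the other libraries, whose SD was 0.100 (n = 11). The summed level of the 10 genes was 599 CPM in KO-Nut3 RH6 and 354 to 405 CPM in the others.

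**Figure D1:**
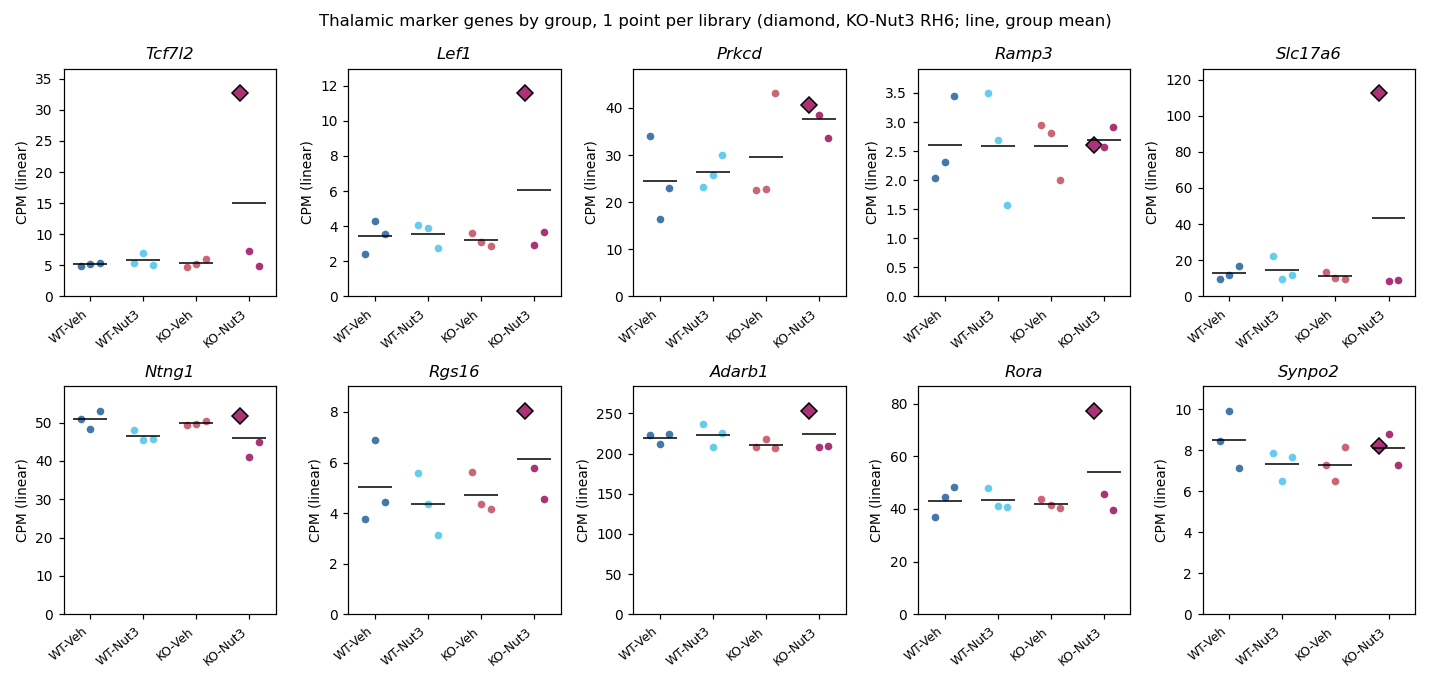
Level of each of the 10 genes (CPM, linear axes from 0) in each library, by group; points are single libraries, the diamond is KO-Nut3 RH6 and the lines are group means over 3 libraries. The diamond stands far above the other points for Slc17a6 (113 CPM), Tcf7l2 (32.7 CPM) and Lef1 (11.6 CPM), and within their range for Prkcd, Ramp3, Ntng1 and Synpo2.

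Set against one another per kilobase of exon, the median levels over the 12 libraries ran from 19.1 CPM per kb for *Adarb1* through 5.93 for *Ntng1*, 5.03 for *Prkcd*, 3.26 for *Rora*, 2.03 for *Slc17a6*, 1.92 for *Rgs16*, 1.92 for *Ramp3*, 0.602 for *Tcf7l2* and 0.594 for *Synpo2* to 0.408 CPM per kb for *Lef1*. Among neighbors in this order, the ranges over libraries overlapped for every pair except *Adarb1* and *Ntng1*, but *Ramp3* and *Tcf7l2*, and *Synpo2* and *Lef1*, overlapped only through KO-Nut3 RH6. In that library *Slc17a6* reached 20.9 CPM per kb, close to *Adarb1* at 22.5 CPM per kb.

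Nutlin-3 in the knockout was examined in KO-Nut3 against KO-Veh. Of the 10 genes, 0 were differentially expressed between KO-Nut3 and KO-Veh (edgeR's quasi-likelihood test, Benjamini-Hochberg adjusted over 22592 genes, smallest adjusted *P* = 0.588), beside 45 of all genes tested (0.199%). At an unadjusted *P* under 0.05 there were 2 of 10, *Slc17a6* and *Tcf7l2*, beside 7.6% of all genes. DESeq2 gave an adjusted *P* for 9 of the 10 here, but none for *Slc17a6*, and called 0 of the 9, beside 245 of all genes (1.08%). In the other 6 comparisons it also called 0 of the marker genes for which it gave one. Testing every gene with at least 1 count called both *Slc17a6* and *Tcf7l2*, beside 1.51% of all genes. *Slc17a6* had a log2 fold change of 1.96 with a standard error (SE) of 0.85 (edgeR unadjusted *P* = 0.0452, adjusted *P* = 0.641), and *Tcf7l2* one of 1.5 with an SE of 0.59 (edgeR unadjusted *P* = 0.0305, adjusted *P* = 0.588). Neither difference passed the threshold after adjustment over all genes tested.

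Without KO-Nut3 RH6 the values of these 2 genes changed most. The log2 fold change of *Slc17a6* became -0.36 with an SE of 0.17 (edgeR unadjusted *P* = 0.0601) and that of *Tcf7l2* 0.20 with an SE of 0.22. *Lef1* went from 0.92 to 0.05 and *Rora* from 0.37 to 0.03. The median over the 10 genes fell from 0.36, with 9 of 10 above 0, to 0.07, with 7 of 10 above 0. With KO-Nut3 RH6 left out, 0 of the 10 were called, beside 0.288% of all genes, and *Ntng1*, at a log2 fold change of -0.21 with an SE of 0.07 (edgeR unadjusted *P* = 0.0136, adjusted *P* = 0.515), was the only one of the 10 with an unadjusted *P* under 0.05, beside 6.37% of all genes.

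**Figure D2:**
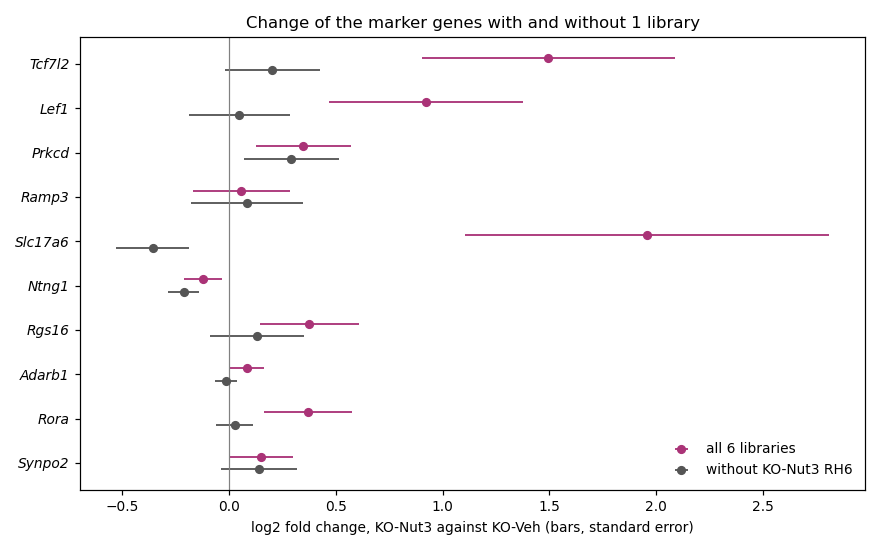
Log2 fold change of each gene between KO-Nut3 and KO-Veh (x axis; bars are standard errors from the edgeR fit) with all 6 libraries and with KO-Nut3 RH6 left out. Slc17a6 moves from 1.96 to -0.36 and Tcf7l2 from 1.5 to 0.20, whereas Prkcd, Ramp3, Ntng1 and Synpo2 stay close to where they were.

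2 comparisons do not include KO-Nut3 RH6, those of KO-Veh and of WT-Nut3 with WT-Veh. In KO-Veh against WT-Veh, 0 of 10 were called (smallest edgeR adjusted *P* = 0.80), beside 4 of all genes (0.0177%), and 0 of 10 had an unadjusted *P* under 0.05, beside 7.2% of all genes. Log2 fold changes lay between -0.22 for *Synpo2* and 0.27 for *Prkcd*, with a median of -0.05. Single libraries moved these values. *Prkcd* was at 0.58 without WT-Veh RH2, 0.05 without WT-Veh RH5 and -0.1 without KO-Veh RH16, and the median was -0.15 without WT-Veh RH2 and 0.03, with 6 of 10 above 0, without WT-Veh RH15. In WT-Nut3 against WT-Veh, 0 of 10 were called (smallest edgeR adjusted *P* = 0.998), beside 0 of all genes (0%) by edgeR and by DESeq2, and 0 of 10 had an unadjusted *P* under 0.05, beside 3.17% of all genes. Here the log2 fold changes lay between -0.21 for *Synpo2* and 0.18 for *Slc17a6*, the latter turning to -0.27 without WT-Nut3 RH1. The median was 0.02, with 6 of 10 above 0, and it was -0.11 without that library, with 2 of 10 above 0, and also without WT-Veh RH2, with 4 of 10 above 0. *Ntng1* was lower in all 3 WT-Nut3 libraries (45.5 to 48.1 CPM) than in all 3 WT-Veh libraries (48.4 to 53.0 CPM), as were 3.92% of all genes, with a log2 fold change of -0.13 and an SE of 0.06 (edgeR unadjusted *P* = 0.0661).

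Between the Nutlin-3 groups, 0 of 10 were called (smallest edgeR adjusted *P* = 0.928), beside 1 of all genes (0.00443%). *Prkcd* alone had an unadjusted *P* under 0.05, beside 4.87% of all genes. It was higher in KO-Nut3, 37.6 ± 3.59 CPM (SD, n = 3), than in WT-Nut3, 26.3 ± 3.51 CPM (SD, n = 3), with a log2 fold change of 0.51 and an SE of 0.12 (edgeR unadjusted *P* = 0.00178, adjusted *P* = 0.928). This difference was of like size without KO-Nut3 RH6, at 0.45 with an SE of 0.12, but it did not pass the adjusted threshold in either fit. The median over the 10 genes was 0.40, and 0.03 without KO-Nut3 RH6. Without it, *Slc17a6* and *Prkcd* were the 2 of 10 with an unadjusted *P* under 0.05, beside 4.11% of all genes, *Slc17a6* with a log2 fold change of -0.74 and an SE of 0.31.

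The interaction of genotype and treatment, which asks whether the Nutlin-3 difference depended on genotype, called 0 of 10 genes (smallest edgeR adjusted *P* = 0.994), beside 0 of all genes (0%) by edgeR and 1 (0.00443%) by DESeq2. With every gene of at least 1 count tested, *Slc17a6* and *Tcf7l2* were called, beside 0.81% of all genes. At an unadjusted *P* under 0.05 there were 0 of 10, beside 4.17% of all genes. All 10 interaction terms were above 0, with a median of 0.37, and 6 of 10, with a median of 0.02, were above 0 without KO-Nut3 RH6. With all 6 knockout libraries set against all 6 wild-type libraries, 0 of 10 were called (smallest edgeR adjusted *P* = 0.580), beside 0.00443% of all genes, and 2 of 10, *Prkcd* and *Tcf7l2*, with every gene of at least 1 count tested, beside 0.665%. An unadjusted *P* under 0.05 was found for 1 of 10, beside 8.16% of all genes. *Prkcd* had a log2 fold change of 0.40 with an SE of 0.17 there (edgeR unadjusted *P* = 0.0389) and of 0.35 with an SE of 0.18 without KO-Nut3 RH6 (edgeR unadjusted *P* = 0.068). Without KO-Veh RH16, its highest library, the value was 0.25 with an SE of 0.16. With all 6 Nutlin-3 libraries against all 6 vehicle libraries, 0 of 10 were called (smallest edgeR adjusted *P* = 0.628), beside 0% of all genes, and 2 of 10, *Slc17a6* and *Tcf7l2*, with every gene of at least 1 count tested, beside 1.5%. An unadjusted *P* under 0.05 was found for 2 of 10, beside 7.29% of all genes. *Tcf7l2* had a log2 fold change of 0.86 with an SE of 0.39 (edgeR unadjusted *P* = 0.0434), which was 0.19 with an SE of 0.14 without KO-Nut3 RH6. *Ntng1* had one of -0.12 with an SE of 0.05 (edgeR unadjusted *P* = 0.0303), and of -0.17 with an SE of 0.04 without that library (edgeR unadjusted *P* = 0.00194, adjusted *P* = 0.393). These pooled comparisons share their libraries with the pairwise ones.

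A second list of 16 genes known from thalamic nuclei or their borders was read beside the 10. In KO-Nut3 RH6, 13 of these 16 were at their highest and 4 lay at least 2-fold above every other library. *Plcb4*, a phospholipase C of thalamic relay neurons, measured 109 CPM there and 19.5 to 30.7 CPM elsewhere. *Foxp2*, a forkhead transcription factor, measured 17 CPM there and at most 3.67 CPM elsewhere. *Shox2*, a homeobox gene of thalamic and midbrain neurons, measured 13.6 CPM there, from 246 reads, and had at most 3 reads in any other library. *Sox14*, which marks GABAergic neurons of the thalamus and midbrain, measured 4.88 CPM there, from 88 reads, and had at most 2 reads elsewhere.

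Other genes of the second list were less separated. *Vamp1*, its most abundant gene, was at 282 CPM in KO-Nut3 RH6 and at 102 to 145 CPM elsewhere. *Tnnt1*, a troponin enriched in thalamic neurons, was at 2.66 CPM there and at 0.342 to 1.59 CPM elsewhere. *Gbx2*, a homeobox gene that defines the developing thalamus, had at most 1 read in any library, including KO-Nut3 RH6. *Lhx2* and *Ptpn3* were at their lowest in KO-Nut3 RH6, at 55.5 and 66.1 CPM. The list summed to 909 CPM there and to 489 to 550 CPM in the others, and 0 of its 15 tested genes were called in KO-Nut3 against KO-Veh, beside 0.199% of all genes, and 6 of 16 were called higher with every gene of at least 1 count tested, beside 1.51%. In the 15 genes the median log2 fold change was 0.58, and 0.06 without KO-Nut3 RH6. In KO-Nut3 against WT-Nut3, 8 of 15 had an edgeR unadjusted *P* under 0.05, beside 4.87% of all genes. All knockout against all wild-type libraries also had 8 of 15, beside 8.16%. Without KO-Nut3 RH6 these were 6 of 15, beside 4.11%, and 5 of 15, beside 8.88%. In KO-Nut3 against WT-Nut3, 12 of 15 were above 0, with a median log2 fold change of 0.35. Without KO-Nut3 RH6, 8 of 15 were above 0 there, with a median of 0.02, so the list did not shift in one direction. In both comparisons with all their libraries, edgeR called 0, beside 0.00443%, and in the first DESeq2 1, beside 0.031%. Testing every gene with at least 1 count called 4 of 16 in the first, beside 0.106%. In the second it called 7 higher and 1 lower, beside 0.665%.

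Genes outside both thalamic lists were also high in KO-Nut3 RH6 alone. Ranked by the ratio to the highest other library among the 68 genes, and so chosen after the values were seen, *Pax7* came first, with 13.7 CPM in KO-Nut3 RH6 and at most 1 read in any other library. *Shox2* followed, and then *Tfap2b*, with 24.2 CPM against at most 0.439 CPM. *Ebf3* had 19.0 CPM against at most 2.62 CPM, and *Klhl1* 10.1 CPM against at most 1.79 CPM. *Slc17a6* ranked 6 and *Tcf7l2* ranked 8 in this order. *Pax7* and *Tfap2b* encode transcription factors used as markers of the dorsal midbrain, which adjoins the caudal thalamus and lies under the caudal hippocampus. The source of these reads was not tested.

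Lists for the other tissues around the hippocampus were read in the same library. Of 8 genes of the medial habenula, 3 were highest and 2 lowest in KO-Nut3 RH6. *Pou4f1*, a POU-domain transcription factor of habenula and midbrain neurons, measured 9.26 CPM there and at most 0.224 CPM elsewhere, but *Tac2* was at its lowest there, at 0.998 CPM, and *Gpr151*, at 0.832 CPM, lay within 0.473 to 1.44 CPM elsewhere. The most abundant gene of the list, *Nwd2*, was lowest there, at 26.0 CPM. *Chrnb4*, a nicotinic receptor subunit of this list, was called as higher with Nutlin-3 in the knockout (log2 fold change 5.01, SE 0.64, edgeR adjusted *P* = 0.0161), beside 0.199% of all genes called. It measured 1.16, 1.89 and 1.15 CPM in the KO-Nut3 libraries and at most 0.057 CPM, the level of 1 read, in KO-Veh, and also 1.34 CPM in WT-Nut3 RH9. The KO-Nut3 libraries and WT-Nut3 RH9 were also the libraries high in choroid plexus markers, as given below. The source of the *Chrnb4* reads was not tested.

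Markers of CA pyramidal neurons and of dentate granule neurons were mostly low in KO-Nut3 RH6. The median ratio to the median of the other 11 libraries was 0.724 for the former and 0.747 for the latter. Of 10 genes of CA pyramidal neurons, 8 were at their lowest there, beside 19% of all genes, and 0 at their highest. *Fibcd1* measured 95.7 CPM against 158 to 200 CPM elsewhere, *Neurod6* 96.7 CPM against 141 to 186 CPM, and *Nr3c2*, the most abundant, 133 CPM against 169 to 241 CPM. The list summed to 633 CPM there and to 830 to 1017 CPM in the others. Of 9 genes of dentate granule neurons, 5 were at their lowest there, beside 19% of all genes, and 1 at its highest, beside 17%. The list summed to 509 CPM, within the 487 to 708 CPM of the others, where only WT-Veh RH5 was lower, at 487 CPM. *Prox1*, their defining transcription factor, measured 91.9 CPM against 102 to 137 CPM. *Wfs1*, on the pyramidal list, was the only gene of these 2 lists called by edgeR at the filter used here in any of the 4 pairwise comparisons, lower in KO-Veh than in WT-Veh (log2 fold change -0.44, SE 0.06, edgeR adjusted *P* = 0.0478). With every gene of at least 1 count tested, 1 of the 9 dentate genes was also called lower in that comparison, beside 0.757% of all genes called.

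**Figure D3:**
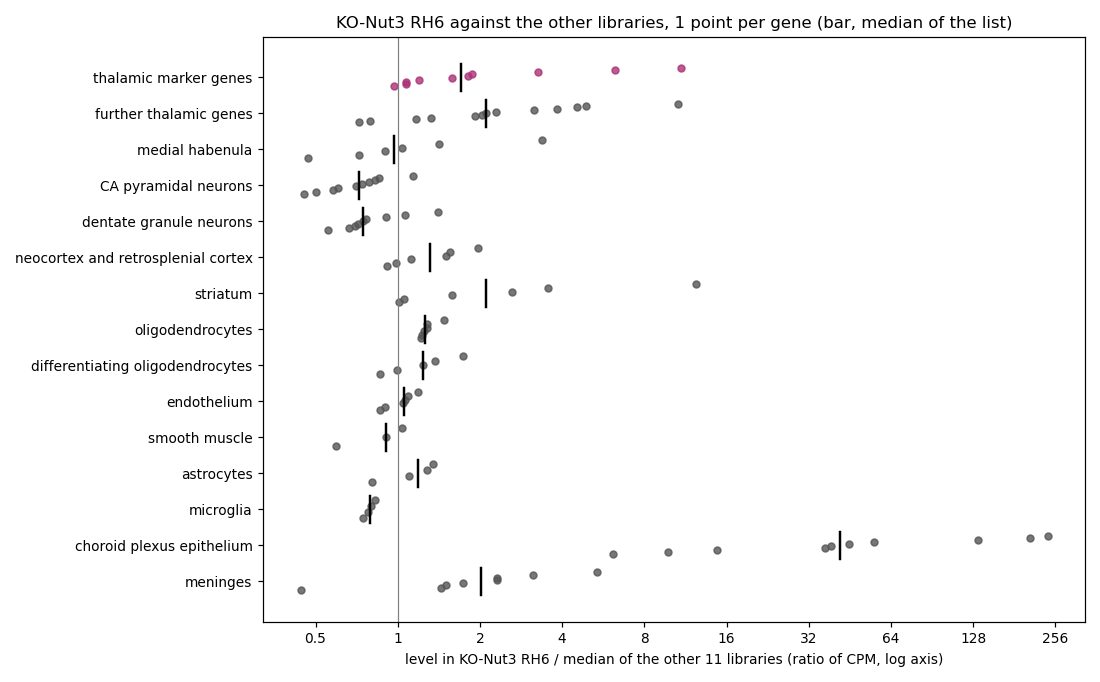
Ratio of the level in KO-Nut3 RH6 to the median of the other 11 libraries (x axis, log scale), 1 point per gene, by gene list; bars are list medians and 6 listed genes under 0.2 CPM in the other libraries' median, or not tested, are not drawn. The 10 thalamic marker genes (top row) spread from 0.972 to 10.9 with a median of 1.70, the CA pyramidal genes have a median of 0.724, and the choroid plexus genes one of 41.6.

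Choroid plexus, the epithelium that produces cerebrospinal fluid beside the hippocampus, had markers that were high in other libraries as well. Its 10 markers summed to 5017, 649 and 6959 CPM in the KO-Nut3 animals RH6, RH8 and RH13 and to 6501 CPM in WT-Nut3 RH9, against 148 to 213 CPM in the other 8 libraries, and the most abundant, *Ttr*, measured 3091 CPM in the first of these and 4520 CPM in the third. In KO-Nut3 RH13 and WT-Nut3 RH9, *Slc17a6* was only 8.95 and 9.64 CPM. *Tcf7l2* was at 4.89 CPM in the former and at 6.91 CPM, the highest wild-type value, in the latter. In KO-Nut3 against KO-Veh, all 10 choroid plexus genes had fold changes above 0, at a median log2 fold change of 4.91, and 4 of them, *Ttr*, *Folr1*, *Slc4a5* and *Tmem72*, were called by edgeR, beside 0.199% of all genes. Without KO-Nut3 RH6, 7 of 10 were called, beside 0.288%, with a median log2 fold change of 4.70. DESeq2 called 10 of 10, beside 1.08%, as did testing every gene with at least 1 count, beside 1.51%. The same genes were also above 0 in WT-Nut3 against WT-Veh, 10 of 10 with a median log2 fold change of 4.72, where WT-Nut3 RH9 was the 1 high library. There edgeR and DESeq2 called 0, beside 0% of all genes, but testing every gene with at least 1 count called 10 of 10, beside 0.693%. An unadjusted *P* under 0.05 was found for 10 of 10 by edgeR, beside 3.17% of all genes. By DESeq2 it was found for 0, beside 1.5%. Of the 8 meningeal genes, *Igf2* was the 1 called by edgeR in KO-Nut3 against KO-Veh (log2 fold change 2.75, SE 0.27, edgeR adjusted *P* = 0.00718), also 1 of 8 without KO-Nut3 RH6, while DESeq2 called 4 and testing every gene with at least 1 count called 7.

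The remaining lists were mixed in KO-Nut3 RH6. The striatal genes summed to 94.2 CPM there and to 46.0 to 82.0 CPM elsewhere, and their median ratio to the other libraries was 2.10, above the 1.70 of the 10 marker genes, as was that of the meningeal genes, 2.02. It was the highest library for 5 of 6 oligodendrocyte genes, which summed to 6106 CPM there and to 3577 to 5871 CPM elsewhere, for 3 of 6 striatal genes, for 3 of 4 astrocyte genes (the most abundant, *Slc1a3*, was at its lowest, and the list summed to 949 CPM there and to 902 to 1208 CPM elsewhere), for 1 of 6 neocortical and retrosplenial genes, for 1 of 5 genes of differentiating oligodendrocytes and for 1 of 10 choroid plexus genes. It was the highest for 0 of 6 endothelial, 0 of 4 smooth muscle, 0 of 4 microglial and 0 of 8 meningeal genes. For 3 of the 4 microglial genes it was the lowest, and these 4 genes summed to 148 CPM there and to 161 to 205 CPM elsewhere. The part of any of these tissues in the levels of the 10 genes was not tested.

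The 10 genes varied together mainly through KO-Nut3 RH6. Over the 12 libraries the 45 pairs of genes had a median Pearson *r* of 0.277 (log2 CPM), and 40 pairs were above 0. The 6 pairs among *Tcf7l2*, *Lef1*, *Slc17a6* and *Rora* had an *r* of 0.856 to 0.945. Over the 11 libraries without KO-Nut3 RH6 the median of the 45 pairs was 0.0438, with 25 above 0, and the same 6 pairs ranged from -0.33 to 0.669. These values are descriptions over libraries that share 4 groups and 1 scaling. The spread itself differed by gene. Among these 11 libraries the highest was 1.14 times the lowest for *Adarb1*, 1.30 for *Ntng1* and 1.31 for *Rora*, but 2.62 for *Prkcd* and 2.64 for *Slc17a6*.

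**Figure D4:**
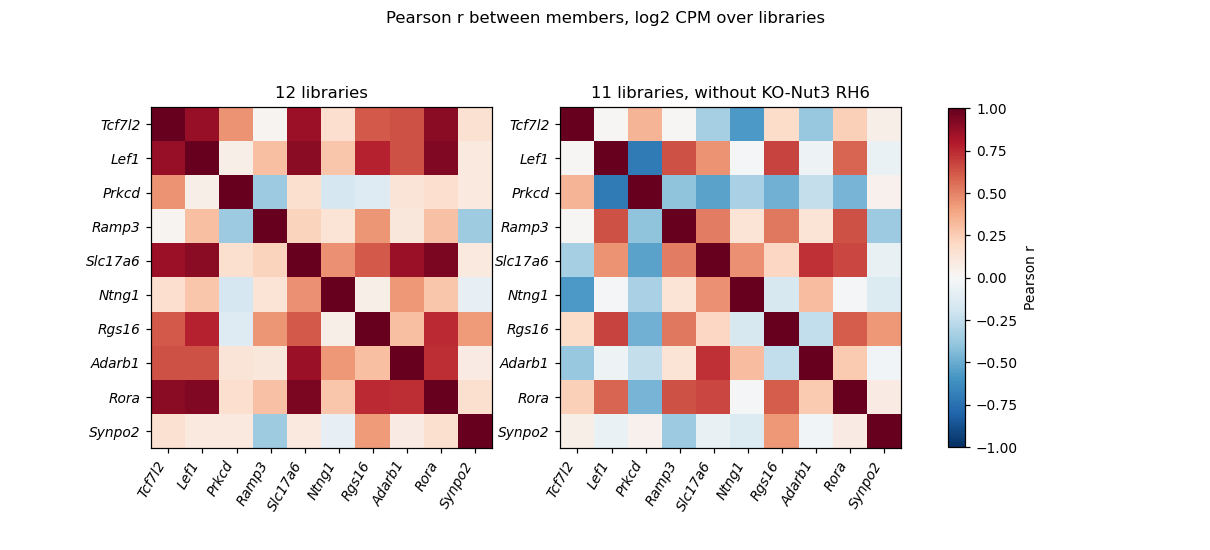
Pearson r of log2 CPM for each pair of the 10 genes, over 12 libraries (left) and over the 11 libraries without KO-Nut3 RH6 (right); red is positive and blue negative. The block of high values among Tcf7l2, Lef1, Slc17a6 and Rora on the left (0.856 to 0.945) spans -0.33 to 0.669 on the right.

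The variation of *Slc17a6* without KO-Nut3 RH6 was compared with that of the listed genes. Among 101 listed genes, *Slc17a6* was most like *Tshz2*, a zinc finger gene on the neocortical and retrosplenial list, with a Pearson *r* of 0.854 and a Spearman rho of 0.773 over 11 libraries, a pair picked for its high value. Next came *Gpr17* (*r* = 0.737), of differentiating oligodendrocytes, and *Wfs1* (*r* = 0.708), of pyramidal neurons, and among the 10 marker genes *Adarb1* had an *r* of 0.733. The *r* with *Tshz2* was 0.515 without WT-Nut3 RH1 and WT-Veh RH15, the 2 libraries farthest from the median of *Tshz2*, so the relation rests in part on them. *Tshz2* measured 114 and 80.6 CPM in these 2 libraries, where *Slc17a6* was 22.2 and 16.8 CPM, and 91.7 CPM in KO-Nut3 RH6, where *Slc17a6* was 113 CPM.

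**Figure D5:**
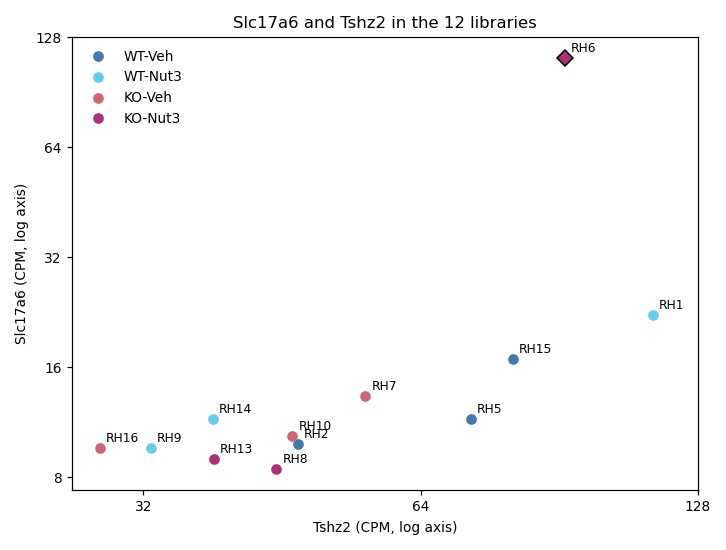
Level of Slc17a6 against Tshz2 (CPM, both axes log scale) in the 12 libraries, 1 point per animal, colored by group; the diamond is KO-Nut3 RH6. The other 11 points reach up to WT-Nut3 RH1 at 22.2 CPM of Slc17a6 and 114 CPM of Tshz2. Their Pearson r is 0.854, and 0.515 without WT-Nut3 RH1 and WT-Veh RH15, for a pair picked for its high value. KO-Nut3 RH6 lies far above the other points at 113 CPM of Slc17a6.

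*Prkcd* was read beside *Zic1*, a pair picked after the values were seen. *Zic1* ranked 4 of 101 listed genes in likeness, behind the dentate granule genes *Stxbp6* (*r* = 0.768) and *Trpc6* (*r* = 0.751) and *Zic4* (*r* = 0.753). With *Zic1*, a zinc finger transcription factor of the medial thalamus, septum and meninges, *Prkcd* had a Pearson *r* of 0.744 and a Spearman rho of 0.718 over the 11 libraries, and an *r* of 0.430 without KO-Veh RH16 and KO-Nut3 RH8, so this relation too rests in part on 2 libraries. The 3 KO-Nut3 animals RH6, RH8 and RH13 had 76.8, 48.8 and 29.2 CPM of *Zic1* and KO-Veh RH16 had 51.1 CPM, beside 8.51 to 21 CPM in the other 8 libraries. The 4 libraries high in *Zic1* held 3 of the 4 highest values of *Prkcd*, the exception being KO-Nut3 RH13 at 33.6 CPM, just under WT-Veh RH2 at 34.0 CPM. *Zic4*, the neighboring family member, was also highest in these 4 libraries, at 8.57 to 16.4 CPM.

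Among all genes with a mean of at least 1 CPM, those whose log2 level was most like the mean of the 10 genes over the 12 libraries were *Grip2* (Pearson *r* = 0.979), *Pax7*, *Nova1*, *Slc38a1*, *Ebf1*, *Rgs6*, *Ppip5k2*, *Aplp2*, *Vat1* and *Rasgrp2* (*r* = 0.958). *Grip2*, a scaffold protein of AMPA receptors, measured 35.3 CPM in KO-Nut3 RH6 and 13.7 to 17.9 CPM elsewhere. *Rgs6* measured 46.1 CPM there and 9.59 to 15.4 CPM elsewhere. The genes most opposed were *Nsmf* (*r* = -0.98), *Stum*, *Gria2*, *Celf2* and *Chst1* (*r* = -0.976). *Gria2*, the AMPA receptor subunit abundant in pyramidal neurons, measured 791 CPM in KO-Nut3 RH6 and 970 to 1092 CPM elsewhere. For all 15 genes KO-Nut3 RH6 was the most extreme library. Over the 11 libraries without it, the *r* of the 10 most alike ran from 0.595 for *Rgs6* to 0.805 for *Slc38a1*, and that of the 5 most opposed from -0.86 for *Gria2* to -0.753 for *Stum*. The 11-library value of *Pax7*, 0.657, comes from a gene with at most 1 read in each of them.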

How the data were processed

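Poly(A) RNA from 12 hippocampi was sequenced. The authors mapped reads to mm10 with STAR and deposited raw read counts per gene for each library. The columns without strand were used, as the share of reads on either strand was near even. The labels describe single reads and the methods paired-end reads. GENCODE M21 gave symbols, and RefSeq (GRCm38.p6) the promoter windows. The 4 summary rows were left out, and the 12 columns of the series table were not used. Genes with more than 20 reads in all (22592) were tested with edgeR 4.0.16 (TMM, quasi-likelihood, Benjamini-Hochberg, threshold 0.05), each pair with its own 6 libraries. The SE is the log2 fold change over the root of the F statistic. CPM are TMM-scaled, and log2 levels use a prior count of 1. DESeq2 1.42.0, other scalings and filters, a term for animal number (up to 8 or from 9) and leaving out each library were alternatives. The steps were tested on simulated data. Same-group libraries differed by more than counting noise. The depth gave at least 28 reads per marker gene and library, and counting error is only part of the error.

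The 10 genes, the 14 other lists and the tests were chosen with earlier results of these data known. All 10 genes are named. Of the other lists, genes past the threshold, up to 4 of the most abundant and those with at most 3 reads could be named, and likeness named the 10 highest and 5 lowest genes. Every other gene named was picked after its values were seen.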

Additional observations from a re-analysis of the deposited data

Results flagged for a closer look

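Of 40 checks of the marker genes in sets of 6 libraries (2 genotypes and 2 treatments), 10 had 1 library standing apart from the other 5 by Dixon's criterion, and 9 of the 10 were KO-Nut3 RH6. Chance gives about 1 in 20 for a single check. Each library sits in a genotype set and in a treatment set, so the 40 checks are not independent. *Slc17a6* at 113 CPM stood apart among the 6 knockout libraries (others 8.42 to 13.3 CPM) and among the 6 Nutlin-3 libraries (others 8.42 to 22.2 CPM). *Tcf7l2* at 32.7 CPM stood apart in both sets (others up to 7.33 CPM), as did *Lef1* at 11.6 CPM (others up to 3.68 and 4.06 CPM) and *Rora* at 77.3 CPM (others up to 45.8 and 47.8 CPM). *Adarb1* at 253 CPM stood apart among the knockout libraries (others up to 218 CPM). The remaining value was *Tcf7l2* at 6.91 CPM in WT-Nut3 RH9 among the wild-type libraries (others 4.84 to 5.38 CPM), a library that also carried choroid plexus markers.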

How the results depend on the processing

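The count of marker genes called was 0 under every alternative run except testing every gene with at least 1 count, but DESeq2 gave no adjusted *P* for *Slc17a6* in 5 of the 7 comparisons, nor for 5 further marker genes in all knockout against all wild-type libraries, and so no verdict on these. With at least 1 count it was 2 in 4 comparisons: *Slc17a6* and *Tcf7l2* in KO-Nut3 against KO-Veh, in the interaction and in all Nutlin-3 against all vehicle libraries, and *Prkcd* and *Tcf7l2* in all knockout against all wild-type libraries. The cause was not tested. Without KO-Nut3 RH6, *Slc17a6* in KO-Nut3 against KO-Veh reversed to a log2 fold change of -0.36, and leaving out each library gave -0.36 to 2.44. A term for animal number took it from 1.96 to 1.11 and *Tcf7l2* from 1.5 to 0.98, and the median over the 10 genes from 0.36 to 0.21 there and from 0.40 to 0.22 in KO-Nut3 against WT-Nut3. The gap of KO-Nut3 RH6 in the mean log2 level, 1.05, was 0.868 without *Tcf7l2*, 0.941 without *Lef1*, 0.771 without *Slc17a6* and 1.15 without *Ntng1*. The median *r* over pairs was 0.0438 to 0.309 with each library left out, an alternative added after the data were seen. The number of all genes called by edgeR moved more. In KO-Nut3 against KO-Veh it was 45, and 0 with all 12 libraries in 1 fit, 20 with a term for animal number, 544 with every gene of at least 1 count, 245 with DESeq2 and 6 to 266 with each library left out. In the same order KO-Veh against WT-Veh went from 4 to 1, 21, 272, 22 and 2 to 11. WT-Nut3 against WT-Veh went from 0 to 11 with animal number, 249 with at least 1 count and 0 to 1 with a library left out, KO-Nut3 against WT-Nut3 from 1 to 38 with at least 1 count, 7 with DESeq2 and 0 to 7, and the interaction from 0 to 291, 1 and 0 to 1. All knockout against all wild-type libraries went from 1 to 10 with animal number, 239, 43 and 1 to 10, and all Nutlin-3 against all vehicle libraries from 0 to 3, 539, 79 and 0 to 19. No paired analysis was possible because the groups share no replicate numbers. With 28 to 69 reads a library, *Ramp3* rested on the fewest reads of the 10.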
